A study of Mus musculus with 8 samples.

Results

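The genes described here are Ahnak, S100a4, S100a6, S100a10, S100a11, Anxa2, Vim, Lmna, Crip1 and Emp1, 10 of the 16735 genes with a value in both experiments. They encode small proteins of the S100 family, their membrane partners and parts of the cell's structural scaffold. All 10 passed the filter on low counts that left 14418 genes for testing. They were taken by gene name, and the names were chosen by their levels in these same libraries, which were already known. Their own values are therefore given as a description without p-values, and counts of how many were called support nothing by themselves. The study profiled mRNA of follicular helper T (Tfh) cells, which give help to B cells in the germinal centre reaction, by bulk RNA sequencing of 8 libraries. All mice were K/BxN, a strain with spontaneous autoimmune arthritis, and carried a Th17 fate-mapping reporter that leaves the fluorescent protein ZsGreen in cells with a Th17 past. The cells were TCRβ+ and CD4+, without CD25 and with CXCR5 and PD-1, and came from the spleen or from Peyer's patches, the lymphoid tissue in the wall of the small intestine. The 4 groups, Peyer's patch ZsGreen-, Peyer's patch ZsGreen+, spleen ZsGreen- and spleen ZsGreen+, had 2 libraries each, replicate 1 from experiment 1 and replicate 2 from experiment 2. The sources used here do not give the driver of the reporter, the number, age and sex of the mice or any pooling. Nothing says that replicates came from separate animals, so p-values measure the spread between these libraries, which may be technical.

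Most S100 proteins are small calcium-binding proteins with paired EF hands that act by binding other proteins. S100A10 pairs with annexin A2, a calcium-dependent membrane-binding protein, and the complex binds the very large scaffold protein AHNAK at the inner face of the plasma membrane. Vimentin and lamins A and C are intermediate filament proteins of the cytoplasm and the nuclear lamina. In T cells, transcripts of several of these genes are commonly higher in memory and effector cells than in naive cells.

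By the positions in the deposited tables (build mm39 in the submitters' processing notes), 5 of the 10 genes lie on chromosome 3. S100a4 is at chr3:90511078-90513352, S100a6 at chr3:90520189-90531488, S100a11 at chr3:93427795-93433594 and S100a10 at chr3:93462387-93471950, all on the plus strand, and Lmna at chr3:88387454-88417263 on the minus strand. Ahnak (chr19:8966648-9054278), Crip1 (chr12:113109936-113117499), Emp1 (chr6:135339543-135360171), Vim (chr2:13578738-13587637) and Anxa2 (chr9:69360902-69399077) lie elsewhere. In the GENCODE M21 annotation, S100a4 shares 302 bases, 51.7% of its exon length, with the same-strand gene model Gm42674, and Anxa2 shares 98 bases with the antisense gene Gm16144. Reads in those bases cannot be assigned to 1 gene with certainty, and no other member shared exon bases with another gene.

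RefSeq promoters (build GRCm38.p6) were found for 9 of the 10 genes, 11 start sites in all, and not for S100a10. The 150 bases before the start are shown for Emp1 and S100a4, whose levels differed most between ZsGreen+ and ZsGreen- cells, for Anxa2, which holds both an AP-1 and a TATA match, and for S100a11, which differed least between the tissues. Capitals mark TGANTCA, the AP-1 site, AGGTCA, the core bound by ROR receptors, and TATAAA, the TATA box. The windows lie on the plus strand at chr6:135362781-135362930, chr3:90603620-90603769, chr9:69453533-69453682 and chr3:93520346-93520495, in that order.
Emp1: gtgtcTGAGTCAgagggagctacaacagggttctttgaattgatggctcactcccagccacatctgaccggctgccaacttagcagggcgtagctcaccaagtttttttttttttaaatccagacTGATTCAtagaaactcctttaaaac
S100a4: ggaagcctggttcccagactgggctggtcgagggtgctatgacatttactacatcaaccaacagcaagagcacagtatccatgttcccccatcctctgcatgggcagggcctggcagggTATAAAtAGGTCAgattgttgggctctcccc
Anxa2: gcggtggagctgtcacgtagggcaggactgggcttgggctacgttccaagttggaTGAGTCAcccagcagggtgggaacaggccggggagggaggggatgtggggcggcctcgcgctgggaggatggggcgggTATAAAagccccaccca
S100a11: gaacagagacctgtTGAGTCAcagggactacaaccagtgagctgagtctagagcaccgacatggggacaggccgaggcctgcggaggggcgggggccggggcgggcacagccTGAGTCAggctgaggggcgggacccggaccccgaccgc
In the 250 bases before the start, TGANTCA on both strands was found in 3 of the 11 promoters, those of Anxa2, Emp1 and S100a11, and in 6.75% of all 32851 promoters of the table. AGGTCA on both strands was in 3 (S100a4, S100a11 and Lmna) against 14% of all promoters. TATAAA on the plus strand was in 3 (S100a4, Anxa2 and Vim) against 7.59%. CACCC, the core of KLF sites, was in 7 against 52%, and GGGCGG, the GC box, in 5 against 32.7%, both searched on both strands. CACCC also lies within longer matches of other zinc finger proteins. In the S100a4 window 1 base separates the TATA box from AGGTCA, while no match to any of these 5 motifs was found in the 250 bases of S100a6.

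Each level below is in CPM, reads of the gene scaled to a common library size after TMM normalization between libraries, and is given for experiment 1 and then experiment 2. S100a4, an S100 protein linked to cell motility, had the widest range of the S100 genes. It was at 7.13 and 4.10 CPM in Peyer's patch ZsGreen- cells, 18 and 30.7 in Peyer's patch ZsGreen+, 120 and 172 in spleen ZsGreen-, and 462 and 655 in spleen ZsGreen+. The 4 groups did not overlap, and their order was the same in both experiments. S100a6, its neighbour in the S100 cluster, was at 22.9 and 58.6, 32.6 and 92.5, 139 and 407, and 272 and 520 CPM in the same order of groups. Every spleen library lay above every Peyer's patch library, and within each experiment the 4 groups kept the order of S100a4.

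S100a10, the annexin A2 partner, was at 160 and 429 CPM in Peyer's patch ZsGreen-, 198 and 480 in Peyer's patch ZsGreen+, 337 and 1277 in spleen ZsGreen-, and 582 and 1564 in spleen ZsGreen+. Its tissues overlapped across experiments but not within either one. S100a11, another S100 protein that binds annexins, was at 51.5 and 220, 75 and 240, 67.9 and 433, and 96.6 and 321 CPM. It was the single member whose tissues overlapped within an experiment, since Peyer's patch ZsGreen+ stood above spleen ZsGreen- in experiment 1. Anxa2 was at 31.6 and 67.9, 28 and 144, 179 and 696, and 213 and 847 CPM, with all 4 spleen libraries above all 4 of Peyer's patch.

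Ahnak differed more between the experiments than between the sorts. It was at 63 and 6.76 CPM in Peyer's patch ZsGreen-, 92.3 and 13.1 in Peyer's patch ZsGreen+, 855 and 71.6 in spleen ZsGreen-, and 880 and 80.6 in spleen ZsGreen+. Within each experiment both spleen libraries stood above both Peyer's patch libraries. Vim, which encodes vimentin, was at 103 and 105, 88.4 and 184, 519 and 372, and 752 and 901 CPM, again with no overlap of the tissues. Lmna, which encodes lamins A and C, had the lowest level of the 10 in every library except replicate 2 of spleen ZsGreen-, where Emp1 was lower, with 1.03 and 0.554, 0.450 and 1.42, 18.3 and 44, and 12.1 and 26.9 CPM. Its Peyer's patch values rest on 5 to 19 counts a library, and the sorts there differed in opposite directions in the experiments (-0.99 and 1.17 on the log2 scale). Crip1, a small LIM-domain protein, was at 22.4 and 37.5, 20.1 and 47.9, 106 and 225, and 128 and 337 CPM. Emp1, a tetraspan membrane protein of the PMP22 family, was at 3.76 and 5.21, 7.82 and 12, 29.8 and 34.5, and 80.9 and 82.5 CPM, 4 groups without overlap in the order found for S100a4.

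**Figure D1:**
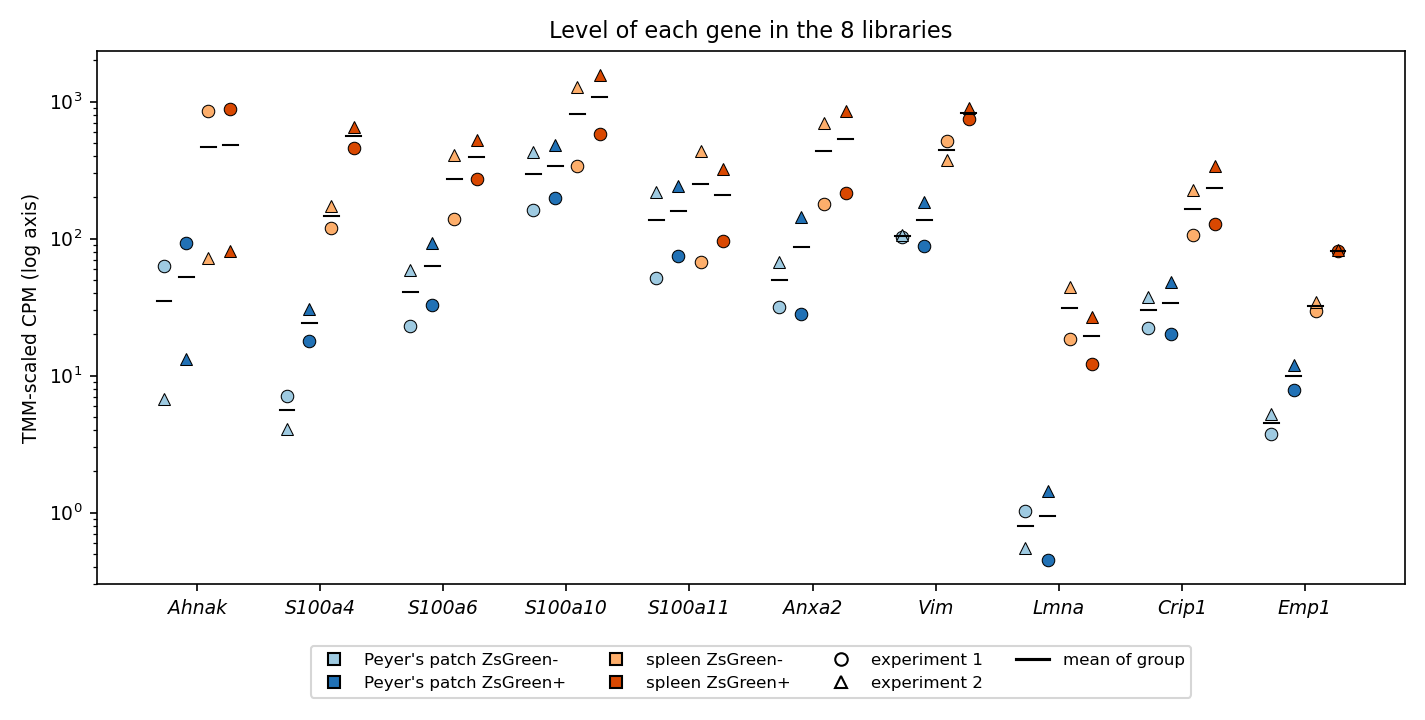
Level of each of the 10 genes (x axis) in TMM-scaled CPM on a log axis. Colours are the 4 groups, circles are experiment 1, triangles are experiment 2 and short lines are group means of 2 libraries. Spleen libraries (orange) stand above Peyer's patch libraries (blue) of the same experiment for every gene except S100a11.

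Levels per kilobase of exon compare different genes only roughly, since the difference between the experiments varied with exon length (below). On this scale S100a4 and S100a10 were the highest of the 10 in spleen ZsGreen+ cells. They were at 792 and 480 CPM per kb in experiment 1 and 1122 and 1290 in experiment 2. In Peyer's patch ZsGreen- cells S100a10 (132 and 354 CPM per kb) and S100a11 (101 and 431) were the highest, and S100a4 was at 12.2 and 7.02. The positions of S100a4 and S100a10 in spleen ZsGreen+ cells changed places between the experiments, so their order was not resolved. Emp1 and Lmna were low throughout, at no more than 13.9 and 7.54 CPM per kb in any library. In experiment 2 Ahnak was below Emp1 in every group. Its values there were 0.34 and 0.66 in Peyer's patch ZsGreen- and ZsGreen+ cells, and 3.59 and 4.04 in those of spleen.

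The first comparison, between tissues, asks how Tfh cells of the gut differ from those of the spleen in either sort. The difference was a lower level in Peyer's patch for all 10 genes, in both sorts and in both experiments. Of the 14418 genes tested, 4523 were lower in both experiments in ZsGreen- cells and 4955 in ZsGreen+ cells. For S100a4 the log2 fold change of Peyer's patch over spleen was -4.56 ± 0.34 (SE) in ZsGreen- cells, 23.7-fold lower, and -4.54 ± 0.32 in ZsGreen+ cells. Lmna had -4.92 ± 0.41 and -4.40 ± 0.40. Ahnak had -3.61 ± 0.20 and -2.95 ± 0.19, or 12.2-fold and 7.75-fold lower, with -3.76 and -3.38 within experiments 1 and 2 for the ZsGreen- cells in spite of its unequal level in the experiments. Emp1 (-2.87 and -3.07), Anxa2 (-2.89 and -2.71), S100a6 (-2.70 and -2.78), Crip1 (-2.40 and -2.75) and Vim (-2.11 and -2.63) lay close together, and S100a10 was less different (-1.34 and -1.63). S100a11, at -0.72 ± 0.22 and -0.39 ± 0.22, had the smallest difference of the 10 in both sorts.

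At an adjusted p under 0.05 by edgeR's quasi-likelihood test, 9 of the 10 genes, all but S100a11, were called lower in Peyer's patch in each sort. Of all genes tested, 3.68% were called lower in ZsGreen- cells and 7.17% in ZsGreen+ cells. The median log2 fold changes of all 10 genes, S100a11 included, were -2.79 and -2.76, beside 0.00307 and 0.015 over all genes tested. The same 9 genes had both Peyer's patch libraries below both spleen libraries in each experiment, as did 10.5% of all genes tested. S100a11 was called lower in ZsGreen- cells by DESeq2 (-0.72) and by edgeR without replicate 1 of spleen ZsGreen- (-1.10). The call for Vim was lost in ZsGreen- cells without replicate 1 or 2 of Peyer's patch ZsGreen- or replicate 2 of spleen ZsGreen+, and in ZsGreen+ cells without that last library. The other 8 calls held with any library left out, while a model without the experiment term called 0 of the 10 and 0% of all genes in either tissue comparison.

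**Figure D2:**
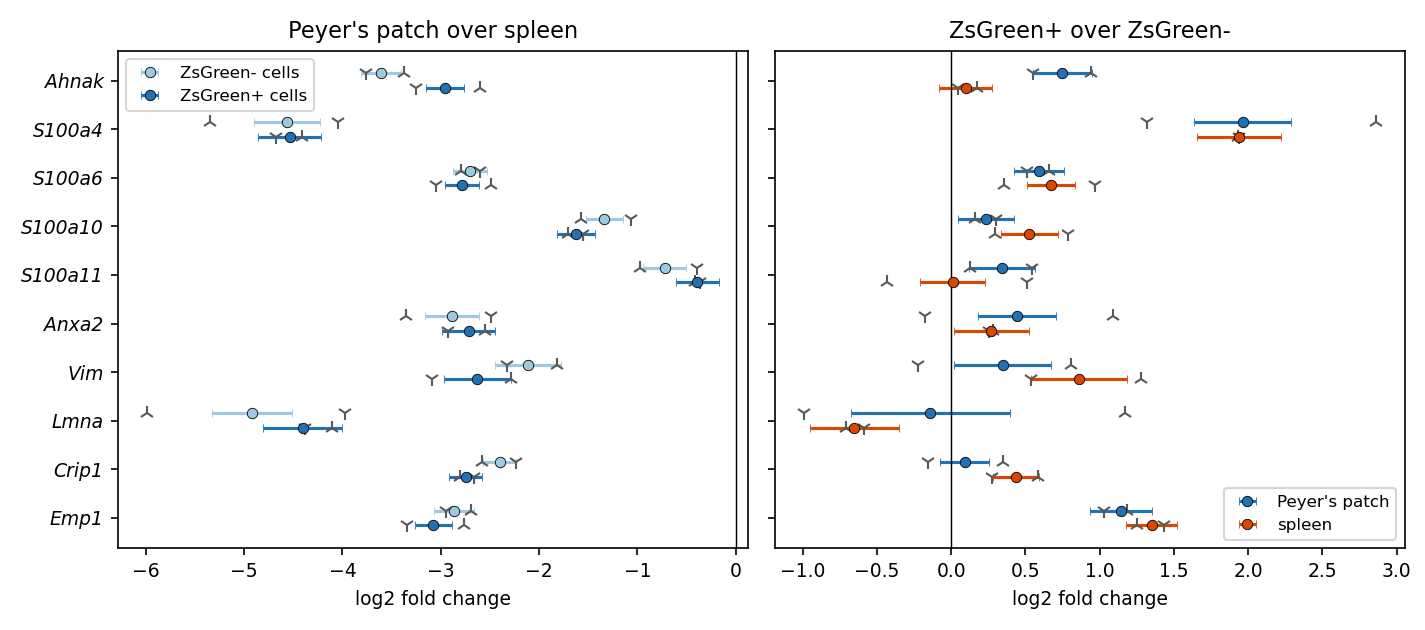
Log2 fold changes (x axis) of the 10 genes for Peyer's patch over spleen (left) and ZsGreen+ over ZsGreen- (right), on separate scales. Circles are fitted values with SE bars, and three-pointed marks are the log2 differences within experiment 1 (pointing down) and experiment 2 (pointing up). All tissue values lie below 0, while the fitted sort values run from -0.65 for Lmna in spleen to 1.96 for S100a4 in Peyer's patch.

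The second comparison, ZsGreen+ over ZsGreen- cells, asks which genes mark Tfh cells with a Th17 past. S100a4 was 3.83-fold higher in spleen ZsGreen+ cells (log2 fold change 1.94 ± 0.28, SE), with 1.94 and 1.93 within experiments 1 and 2. In Peyer's patch it had 1.96 ± 0.33, with the less even values of 1.32 and 2.86 within the experiments. Emp1 was 2.55-fold higher in spleen (1.35 ± 0.17) and 2.21-fold higher in Peyer's patch (1.15 ± 0.21). S100a6 had 0.67 ± 0.16 in spleen and 0.59 ± 0.17 in Peyer's patch. Vim had 0.86 ± 0.32 in spleen, where both experiments gave a higher level, and 0.35 ± 0.33 in Peyer's patch, where the experiments had opposite signs (-0.23 and 0.80). S100a10 had 0.53 ± 0.19 and 0.23 ± 0.19 and Crip1 0.43 ± 0.15 and 0.09 ± 0.16 in spleen and Peyer's patch. Ahnak showed the reverse pattern of tissues, 0.10 ± 0.18 in spleen and 0.75 ± 0.20 in Peyer's patch. Anxa2 (0.27 ± 0.25 and 0.44 ± 0.26) and S100a11 (0.01 ± 0.22 and 0.34 ± 0.22) differed by less than 2 SE in both tissues. The experiments also had opposite signs for Crip1 (-0.155 and 0.351) and Anxa2 (-0.17 and 1.09) in Peyer's patch, and for S100a11 in spleen (0.51 and -0.43). Lmna was the member with a lower value in spleen ZsGreen+ cells in both experiments, at -0.65 ± 0.30.

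In spleen S100a4, S100a6 and Emp1 were called higher and 0 of the 10 lower, beside 4.53% and 4.09% of all genes tested. In Peyer's patch Emp1 alone was called, beside 0.284% called higher and 0.153% lower among all genes. By sign, 8 of 10 were higher in ZsGreen+ cells of spleen in both experiments and 6 of 10 in Peyer's patch, where the shares of all genes were 31.7% and 27.4%. The calls for S100a4 and S100a6 depended on single libraries. S100a4 lost its call in spleen without any 1 of the 4 spleen libraries (log2 fold change 1.85 to 2.02), and gained one in Peyer's patch without either Peyer's patch ZsGreen- library (2.81 without replicate 1 and 1.43 without replicate 2). S100a6 lost its call without replicate 1 of spleen ZsGreen- or of spleen ZsGreen+ (0.53 and 0.39). Vim gained one in spleen without replicate 1 of spleen ZsGreen- (1.38) or without either Peyer's patch ZsGreen+ library (0.90 and 0.94), and S100a10 without replicate 2 of spleen ZsGreen- (0.80). Emp1 kept its spleen call with any library left out and lost that of Peyer's patch without either ZsGreen- library (1.03 and 1.24) or replicate 2 of ZsGreen+ (0.91). DESeq2 called S100a10 and Vim as well in spleen and S100a4 in Peyer's patch, beside 1482 and 147 of the 14418 genes tested. Without the experiment term 0 of the 10 and 0% of all genes were called in either tissue.

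Whether the sort difference depended on the tissue was asked of the difference itself, Peyer's patch minus spleen. For S100a4 it was 0.03 ± 0.40 (SE), for Emp1 -0.21 ± 0.27, for S100a6 -0.08 ± 0.23 and for Ahnak 0.65 ± 0.26 on the log2 scale. edgeR's quasi-likelihood test called 0 of the 10, with 1 at an unadjusted p under 0.05, and DESeq2 called 0, beside 0.0971% of all genes called by edgeR. With SE from 0.22 (Crip1) to 0.62 (Lmna), a difference of the size seen for Ahnak would not be resolved for several of these genes.

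Members did not follow the tissue contrast to the same extent, but 9 of them shared its shape. Over the 8 libraries, with log2 CPM centred within each experiment, the 36 pairs without S100a11 had Pearson r from 0.871 (Emp1 and Lmna) to 0.991 (Crip1 and Anxa2). S100a11 reached at most 0.849, with S100a10. These are descriptions over libraries that share the same tissue difference. The genes outside the set nearest to S100a4 among 8966 with a mean of at least 10 CPM were Ncf4 (r = 0.996), a subunit gene of the phagocyte oxidase, Tmem64 (0.993) and Gfod1 (0.99). Nearest to Ahnak were Chsy1 (0.986), Gcg (0.986), the proglucagon gene, and Ehd4 (0.985). Nearest to Lmna were Ctsw (0.994), which encodes cathepsin W, the cyclin D3 gene Ccnd3 (0.994) and Oxsr1 (0.992). The size of the difference was not part of this measure: Ncf4 had a log2 fold change of -0.62 between tissues in ZsGreen- cells where S100a4 had -4.56.

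The wider setting was read from 8 lists of related genes with 106 symbols, of which 82 were tested. They held other S100 genes, annexins, EMP and LIM families, lamina and LINC complex genes, filament linkers, cortical actin genes, and effector-memory and recirculation genes. All 8 lists were chosen with earlier results of these data known, so counts and p-values from them support nothing by themselves. In ZsGreen- cells 26 of the 82 were lower in Peyer's patch and 0 higher, with a median log2 fold change of -0.42. Of all genes tested 3.68% were called lower and 1.82% higher there. In ZsGreen+ cells 35 were lower and 2 higher, with a median of -0.50, beside 7.17% of all genes called lower and 5.51% higher. These shares of all genes are also the ones to set beside the counts of each list that follows. The annexins Anxa6 (-1.33 ± 0.18, adjusted p = 0.00127, and -2.21 ± 0.19, adjusted p = 3.13e-05) and Anxa1 (-3.56, adjusted p = 0.011, and -3.18, adjusted p = 0.0037) were the 2 of 7 that fell in both sorts by edgeR. In Peyer's patch Anxa1 was very low, at no more than 1.65 CPM in any library. Anxa1 lost its calls without replicate 2 of Peyer's patch ZsGreen- or replicate 1 of spleen ZsGreen- in the first sort, and without replicate 2 of spleen ZsGreen+ in the other. Anxa3 was higher in Peyer's patch ZsGreen+ cells (1.95, edgeR adjusted p = 0.0281), a call that 5 of the 8 single-library omissions ended (highest adjusted p 0.212). Anxa5, a common annexin, stood at -0.04 in ZsGreen- and -0.34 in ZsGreen+ cells and was not called.

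Among the 4 S100 family genes tested besides the members, S100a13 fell in Peyer's patch ZsGreen+ cells (-0.92, edgeR adjusted p = 0.00662), a call lost without replicate 1 of Peyer's patch ZsGreen+ or replicate 2 of spleen ZsGreen+. Emp3, of the same family as Emp1, fell in both sorts (-2.17 and -2.69, edgeR adjusted p = 0.000211 and 3.13e-05). So did the LIM-domain gene Crip2 (-3.41 and -4.36, edgeR adjusted p = 0.0308 and 0.00456). Crip2 was very low in Peyer's patch, at no more than 2.1 CPM in any library. The first Crip2 call was lost in 5 of the 8 single-library omissions (highest adjusted p 0.276). Plec, the filament linker plectin, was the 1 of 4 in its list that fell (-1.58 and -1.70, edgeR adjusted p = 0.000113 and 3.13e-05). Of 15 lamina and LINC genes 3 fell in ZsGreen- and 5 in ZsGreen+ cells, among them the lamin B1 gene Lmnb1 (-0.54, edgeR adjusted p = 0.0464, and -1.37, adjusted p = 9.21e-05). The first Lmnb1 call was lost when any library but replicate 2 of spleen ZsGreen- was left out (highest adjusted p 0.394). Of 24 cortical actin genes 5 and 7 fell, with Tagln2 (-1.52 and -2.11, edgeR adjusted p = 0.000744 and 4.2e-05) at the smallest p in both sorts. Vcl, which encodes the adhesion protein vinculin, fell further in ZsGreen+ cells (-4.70 ± 0.51, edgeR adjusted p = 0.000154) and was not called in ZsGreen- cells (-1.99, edgeR adjusted p = 0.0523). That value lay close to the threshold, and DESeq2, edgeR without a count filter and edgeR without either Peyer's patch ZsGreen+ library did call Vcl there. Vcl shares 25.5% of its exon length with the protein-coding gene Ap3m1 on the opposite strand. Ap3m1 had a mean of 601.4 counts a library against 93.6 for Vcl, so the counts of Vcl are uncertain. The Peyer's patch levels of Vcl were also very low, at 1.58 and 0 CPM in ZsGreen- and 0.956 and 0.30 in ZsGreen+ cells. The actin gene Actb itself had -0.32 and -0.51 without a call, and the list medians were -0.31 and -0.43.

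Of the 23 effector-memory and recirculation genes tested, 13 were lower in ZsGreen- cells, and 16 were lower and 1 higher in ZsGreen+ cells, with list medians of -1.56 and -2.04. Klf2, a transcription factor that drives lymphocyte exit receptors, fell, with log2 fold changes of -3.32 and -3.03 in ZsGreen- and ZsGreen+ cells (edgeR adjusted p = 1.25e-05 and 9.07e-06). Its levels were 438 and 950 CPM in spleen ZsGreen- against 56.9 and 72 in Peyer's patch ZsGreen- cells. S1pr1, the exit receptor, fell in both sorts (-1.92 and -1.93, edgeR adjusted p = 4.57e-05 and 2.27e-05). Lgals1, the galectin-1 gene, fell in both (-1.96 and -2.69, edgeR adjusted p = 0.000247 and 2.27e-05), as did Itgb1, the integrin β1 gene (-4.67 and -2.04, edgeR adjusted p = 3.87e-05 and 0.00081). The ZsGreen- values of S1pr1 and Lgals1 and the ZsGreen+ value of Itgb1 were added after they had been seen.

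In the sort comparison in spleen, 10 of the 82 related genes rose and 3 fell in ZsGreen+ cells, beside 4.53% called higher and 4.09% called lower of all genes tested. The 3 of 82 are near the share of all genes and include Itgb1 (-2.52 ± 0.25, edgeR adjusted p = 0.000517) and Klf2 (-1.09 ± 0.18, adjusted p = 0.00381), which is named here after its values were seen. Itgb1 was at 892 and 1031 CPM in spleen ZsGreen- and 216 and 136 in spleen ZsGreen+ cells. Those that rose included Cd48, a SLAM family receptor (1.15, edgeR adjusted p = 0.000843), Lmnb1 (1.02, adjusted p = 0.00121) and Tagln2 (0.82, adjusted p = 0.0182). Tagln2 lost its call without replicate 2 of spleen ZsGreen- or either spleen ZsGreen+ library. In the same comparison S100a4, S100a6 and Emp1 of the 10 genes were called higher, and Lmna was lower without a call (-0.65). In Peyer's patch 0 of the related genes were called higher and 1 lower, and the 1 call was lost without replicate 1 of Peyer's patch ZsGreen-. The 13 calls in spleen were 7 without replicate 2 of spleen ZsGreen- and 8 without either spleen ZsGreen+ library.

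**Figure D3:**
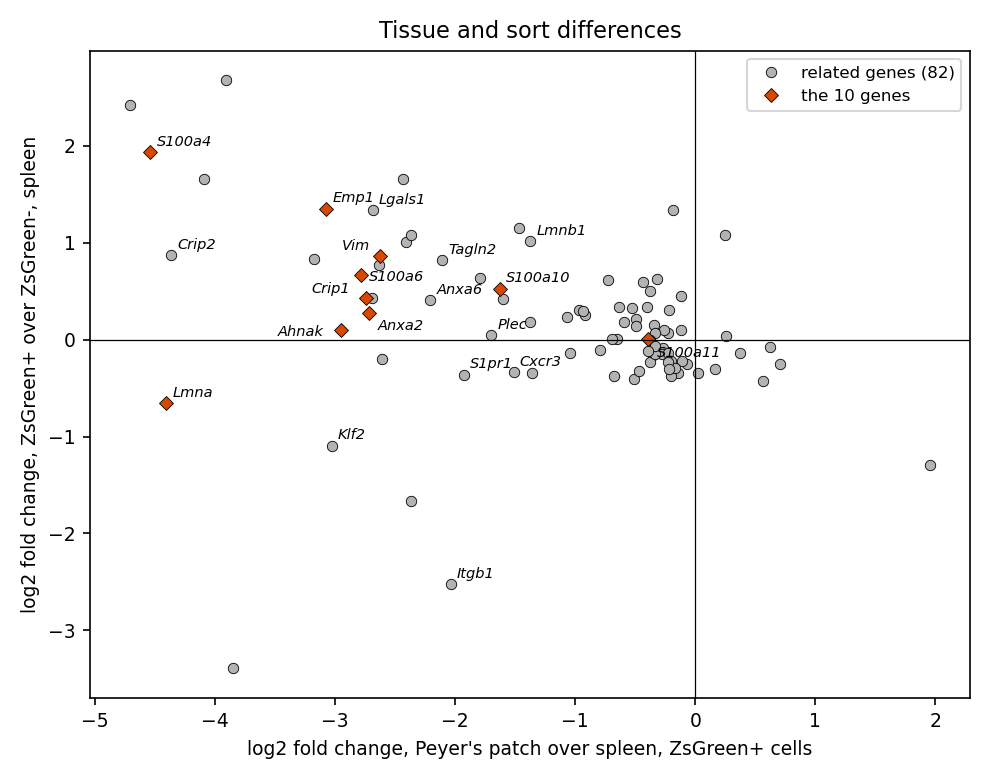
Log2 fold change of Peyer's patch over spleen in ZsGreen+ cells (x axis) against that of ZsGreen+ over ZsGreen- in spleen (y axis), for the 10 genes (diamonds) and 82 related genes (grey). The comparisons share the spleen ZsGreen+ libraries, so the axes are not independent. The 10 genes lie left of 0, from S100a4 (1.94 on the y axis) to Lmna (-0.65), and Itgb1 lies lower on the y axis than any of them, at -2.52.

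The experiments differed by more than the sorts for most members. Averaged over the 4 groups, experiment 1 minus experiment 2 was 3.25 on the log2 scale for Ahnak (2.80 to 3.57 over the groups), whose exons span 19.9 kb. It was -2.04 for S100a11, with 0.511 kb of exon, -1.85 for Anxa2 and -1.51 for S100a10. S100a4, Vim and Emp1 were nearer to 0, at -0.25, -0.22 and -0.33. Over all genes tested with a length, the median was -0.62 for 1343 genes of up to 1 kb, -0.95 for 1953 of 1 to 2 kb, 0.47 for 4788 of 4 to 8 kb and 1.02 for 2085 longer ones. The tissue values of Ahnak within each experiment, given above, compare libraries of 1 experiment only. The part of exon length in these differences was not tested.

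**Figure D4:**
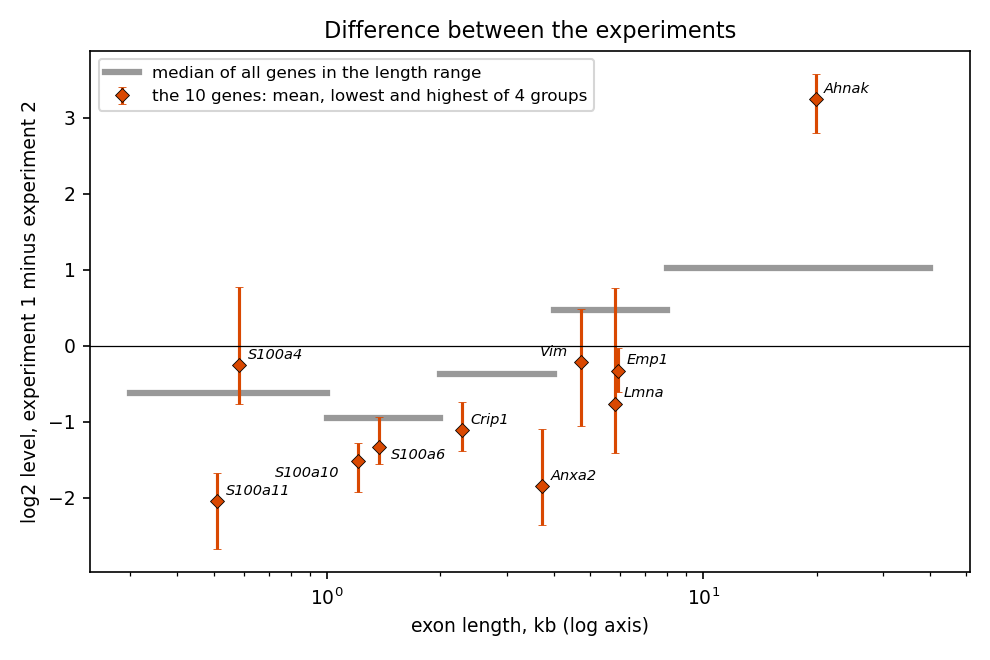
Mean log2 level in experiment 1 minus experiment 2 (y axis) against exon length in kb (x axis, log scale) for the 10 genes, with bars from the lowest to the highest of the 4 groups. Grey lines are medians of all genes tested in 5 length ranges, of which the first and last are drawn short of their limits. Ahnak, the longest, stands at 3.25 and S100a11, the shortest, at -2.04.

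The sorted identity and other cell types were read from marker lists, which were also chosen with earlier results of these data known. The T cell list, including Cd3e, Cd4 and Trac, was present in every library. Of 12 Tfh genes 6 were higher in Peyer's patch ZsGreen+ than in spleen ZsGreen+ cells, beside 5.51% of all genes called higher. Cxcr5 was at 636 and 633 CPM in the former against 124 and 105 in the latter. Of 10 Th17 genes 7 were higher in the spleen ZsGreen+ cells, beside 7.17% of all genes called in that direction. With ZsGreen in spleen 9 of the 10 rose, beside 4.53% of all genes called higher. In that spleen sort comparison 3 of the 12 Tfh genes fell and 0 rose, beside 4.09% of all genes called lower. Cxcr5 was 1 of the 3, at 351 and 390 CPM in spleen ZsGreen- cells. Between tissues in ZsGreen- cells, 1 of the 12 was higher in Peyer's patch and 0 lower, beside 1.82% of all genes called higher. So was 1 of the 10 Th17 genes, Il1r1 (log2 fold change 1.58), with 0 lower. The 2 of 10 stromal markers in both tables summed to 0.766 to 3.32 CPM in spleen and 0.997 to 5.34 in Peyer's patch, and the 9 of 10 epithelial markers to 4.49 to 11.7 in spleen and 16.2 to 22.4 in Peyer's patch, with 5 at 0 in all spleen libraries. The 8 of 11 myeloid markers summed to 78.4 to 194 CPM in spleen and 90.5 to 146 in Peyer's patch, of which Cst3 made up 58.5 to 188 and 56.8 to 128, and Lyz2 4.03 to 9.96 in spleen and 15.7 to 26.8 in Peyer's patch. B cell markers summed to 144 to 734 CPM in spleen and 340 to 686 in Peyer's patch, plasma cell markers to 73.4 to 278 and 109 to 213, CD8 T and NK markers to 19 to 36.8 and 47.2 to 72.8, endothelial markers to 59.8 to 156 and 47.7 to 143, and erythroid markers to 4.29 to 9.05 and 0 to 30.8. In these bulk libraries fewer cells of a type and less RNA per cell cannot be told apart. The part of these other cells, and of the unequal Tfh and Th17 marker levels, in the differences of the 10 genes was not tested.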

How the data were processed

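The labels' protocols give Trizol extraction and either poly A selection or a preparation for very small mRNA inputs that does not mark strand, with no record of which was used for each library. Overlapping genes on opposite strands therefore cannot be separated. The submitters' processing notes list Partek, STAR, DESeq2 and the mm39 build; the sources used here give neither their versions nor their settings. The deposited raw tables hold expected counts per gene, and were rounded, as 17.6% to 29.9% of each library's values were over 0.01 away from the nearest integer. The normalized tables hold a signal deposited by the authors, the same counts times 1 constant per library (0.765 to 1.58), and served only as a check. Totals were 10009823 to 15323743 counts a library.

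The 14418 of 16735 shared genes that passed filterByExpr (minimum count 10) were fitted in edgeR 4.0.16 (R 4.3.3, TMM, robust quasi-likelihood) with 4 group means and an experiment term, leaving 3 residual degrees of freedom. Adjusted p-values are Benjamini-Hochberg over all genes tested. Log2 CPM used a prior count of 2. The experiment term stands for the replicate number, which the labels tie to separate tables. Same-experiment deviations from group means correlated with r from 0.825 to 0.867 over the 6 pairs of groups. The alternatives were RLE scaling, no count filter, a minimum count of 50, no experiment term, DESeq2 1.42.0, and each library left out. The members, the 8 related lists and the 11 marker lists were chosen with earlier results of these data known. Related genes were named when called, up to 3 per list and comparison by smallest p, and others serve as examples; 1 gene of the lists is counted but not reported here by name. Genes of like pattern were the 3 with the highest r for each of S100a4, Ahnak and Lmna. Exon lengths and overlaps come from GENCODE M21 (GRCm38), used for names and lengths only. Gene ends are the start plus the deposited length.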

Additional observations from a re-analysis of the deposited data

Results flagged for a closer look

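Itgb1 was flagged because its sort difference differed between the tissues. Peyer's patch minus spleen was 2.63 ± 0.35 on the log2 scale (SE, edgeR quasi-likelihood adjusted p = 0.0338), with 0.11 in Peyer's patch and -2.52 in spleen, and both experiments had the same sign. The call was lost without either Peyer's patch ZsGreen- library, replicate 1 of Peyer's patch ZsGreen+ or either spleen ZsGreen+ library (highest adjusted p 0.178).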

How the results depend on the processing

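Counts are of the 10 genes and of the 82 related genes called. Without the experiment term, which removes the replicate block and so the pairing by experiment, 0 were called in every comparison in both sets, and 0% of all genes. DESeq2 called 2 members (both higher) and 3 related genes in the Peyer's patch sort comparison, beside 147 of all 14418 genes tested. In the spleen one it called 5 members, beside 1482 of all genes. For the difference between tissues it called 4 related genes, beside 142 of all genes, and the fit without a count filter gave 2 related genes. With 1 library left out, calls in the Peyer's patch sort comparison ranged from 0 to 1 for the members and 0 to 3 for related genes, in spleen from 1 to 4 and from 7 to 16, and for the difference between tissues from 0 to 1 related genes. In the tissue comparisons members called ranged from 8 to 10 (ZsGreen-) and 8 to 9 (ZsGreen+). The members' median log2 fold change ranged from 0.294 to 0.735 in the Peyer's patch sort comparison, from -2.82 to -2.58 between tissues in ZsGreen- cells and from -3.21 to -2.65 in ZsGreen+ cells. RLE scaling and the stricter count filter moved no count of calls by more than 1.5 times. The number of related genes called between tissues also changed with the library left out, in both sorts. A group left with 1 library is assumed to vary like the others. The cause of these changes was not tested, and leaving a library out also lowers the number of libraries. Lmna in Peyer's patch rests on 5 to 19 counts a library.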
